A study of Mus musculus with 12 samples.

Results

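The comparison described here is that of dam lungs after gestation in cigarette smoke with dam lungs after gestation in filtered air. It rests on 6 arrays, 3 per group, of the 12 in the series, and the members are the arrays titled as dams. The other 6 arrays, from lungs of offspring labelled prenatal after smoke or filtered air, entered the estimate of the spread, the background floor and the choice of tested probes, and were used to show where dams differed. All dams were mature pregnant females of a strain written B6C6F1 in the labels; their age and the number of animals behind each array are not given there. The smoke group breathed mainstream smoke of 3R4F cigarettes, a research cigarette of fixed make, at a dilution of 1 in 50. Exposure lasted 4 h daily, 5 days weekly, through 18 days of gestation up to parturition, after which lungs were taken. The control group breathed filtered air. Total lung RNA, 500 ng per sample, was amplified and hybridised to Agilent arrays, and the labels call the samples biological replicates. They do not say whether the dams of a group shared a chamber, so p-values measure only the spread between these samples.

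Inhaled smoke reaches the airway lining, the alveolar wall and the alveolar macrophages. Its polycyclic hydrocarbons bind the aryl hydrocarbon receptor, a transcription factor that switches on cytochrome P450 genes for their breakdown, and its oxidants act on NRF2, which drives glutathione and other antioxidant genes. Macrophage and neutrophil recruitment is the other well known response of the smoke-exposed lung. None of these programmes could be assigned to a probe here: no probe identifier was found in the gene table used (0 matches), so probes are described by identifier or by their order, and no probe sequence was used. For the same reason the lung identity of the samples was not checked against marker genes. In whole lung, fewer cells of a type and less RNA per cell cannot be told apart.

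Intensities were expressed as relative intensity, the percent of the array's own 75th percentile, controls left out of the 41174 probes used for it. That percentile ran from 839 to 1101 on the dam arrays, and between 65.3% and 66.5% of probes lay above the background floor. The floor, 1.16% for all arrays, is the background of offspring smoke replicate 3, whereas the dam arrays had backgrounds of 0.409% to 0.662%. The labels name Cy5 for lung RNA and Cy3 for a reference RNA, whereas scan names carry a 1-colour code, and the sources used here do not say which channel the values hold. Slide 1 held dam smoke replicates 1 and 2, slide 2 held dam air replicates 1 and 2, and slide 3 held the third of each group.

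Smoke exposure did not separate the dam arrays, and dam smoke replicate 3 stood furthest apart. Correlations across the 28185 tested probes were 0.991 to 0.995 within dam smoke, 0.992 to 0.997 within dam air and 0.990 to 0.996 between the groups. By correlation, the closest partner of dam smoke replicate 2 was an air array, dam air replicate 1, from which it differed more than 2-fold at 263 probes; it differed from dam smoke replicate 1 at 310. Dam smoke replicate 3 differed more than 2-fold from the other dam arrays at 706 to 1117 probes, the most of them against dam air replicate 3 on its own slide. It scored 50.5 on the first principal component, which held 35.3% of the variance, while the other 5 arrays scored -22.0 to -2.45. Dam air replicate 2 stood apart on the second component, which held 24.5%, at 37.9 where the other arrays scored -23.3 to 9.58.

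Dam smoke replicate 3 also lay closer to the smoke-exposed offspring than the other dam arrays did. Its mean correlation with the 3 offspring smoke arrays was 0.986, against 0.974 to 0.976 for each of the other 5 dam arrays. Its mean correlations with dam arrays were higher, at 0.992 with the other dam smoke arrays and 0.991 with dam air. Set against the mean of the dam air arrays, its differences correlated across probes at r = 0.630 with the offspring difference between smoke and air. The same correlation was -0.0899 for dam smoke replicate 1 and 0.00806 for replicate 2; probes are not independent, the 3 values share the air mean, and they are given as a description. Dam smoke replicate 3 was the highest or lowest of the 6 dam arrays at 55.8% of the 25772 probes above the floor on all of them, against 44.8% for dam air replicate 2, 33.4% for dam smoke replicate 1 and 17.1% to 29.4% for the other 3. Its spike-in signal over the 75th percentile was also the highest, at 2.76, where dam smoke replicates 1 and 2 had 1.52 and 1.77 and the dam air replicates 1.59, 1.65 and 1.86. Whether the spike-in ratio had a part in the position of this array was not tested. Whether its label holds could not be checked without gene names, and the dam smoke means below include it except where values without it are given.

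The offspring air arrays did not group with the offspring smoke arrays. Their mean correlations with the dam air arrays were 0.991, 0.988 and 0.988 for offspring air replicates 1 to 3, as close as those with the other offspring air arrays, at 0.987, 0.989 and 0.989. With the offspring smoke arrays they were 0.971, 0.979 and 0.968. Both offspring groups carry the label prenatal, which could not be checked without gene names. The 75th percentiles were 917, 491 and 549 for offspring smoke replicates 1 to 3 and 840, 868 and 1164 for offspring air. The spike-in signal over the 75th percentile was 3.42, 4.22 and 3.59 for offspring smoke and 2.30, 3.23 and 1.60 for offspring air. Every comparison with offspring below rests on these offspring smoke and offspring air arrays. The part of their position, signal and spike-in ratio in those comparisons was not tested.

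**Figure D1:**
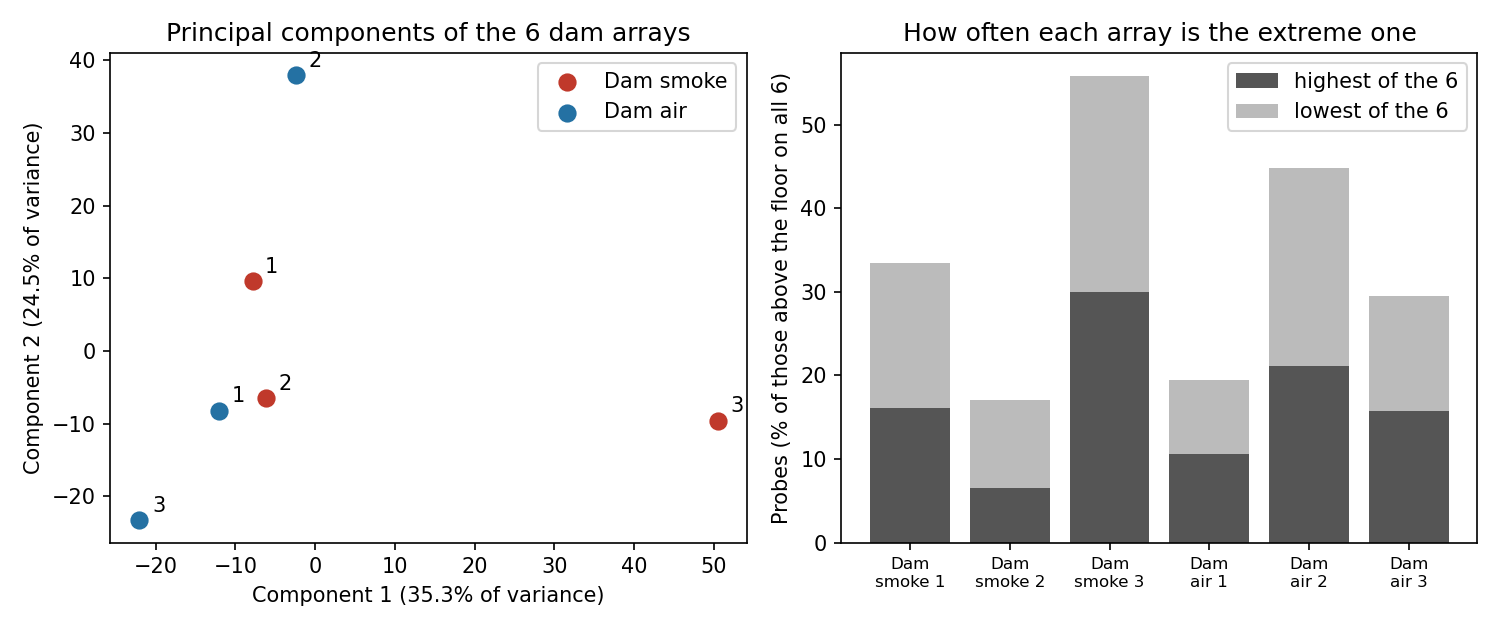
Left, the first 2 principal components of the 6 dam arrays, each point an array with its replicate number; dam smoke replicate 3 sits at 50.5 on component 1 and dam air replicate 2 at 37.9 on component 2, each away from the other arrays. Right, the percent of 25772 probes at which each array was the highest (dark) or the lowest (light) of the 6, which reached 55.8% in dam smoke replicate 3.

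Between dam smoke and dam air no probe passed the threshold, and most probes differed by little. Limma called 0 of 28185 probes at an adjusted p under 0.05 (0% called), and the smallest adjusted p was 0.133, at a probe whose 3 air values were all set to the floor. At an unadjusted p under 0.05 there were 1166 probes (4.14%), 641 higher and 525 lower in smoke, and a plain test of equal variance on the dam arrays also called 0, with 1587 at the unadjusted level. A limma fit of the 6 dam arrays alone, which takes no spread from the offspring arrays, called 0 probes and gave 1691 an unadjusted p under 0.05. The median absolute log2 difference was 0.10, and 96.3% of probes differed by less than 0.5 on the log2 scale. The median standard error of a difference was 0.15, which gives a 95% interval of 0.33 to either side. For 92.3% of probes this interval, unadjusted for the number of probes, lay wholly within a 2-fold change either way, and for 70.3% within a 1.5-fold change. The floor compresses differences of dim probes, so these shares hold for the floored values. They were 91.5% and 67.6% without dam smoke replicate 3. With the floor and the probe filter taken from the dam arrays, limma called 1 of 29066 probes, lower in smoke (adjusted p 0.0200). It read 0.209%, 0.727% and 0.308% with smoke and 1.39%, 1.74% and 2.06% with air, so that 2 of the smoke values lay under that floor of 0.662% and were set to it.

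Larger differences were few and were found in both directions. More than 2-fold differences of the group means were seen at 44 probes higher and 39 lower in smoke, of which 26 and 18 had groups that did not overlap. Beyond 4-fold there were 7 higher and 9 lower, of which 3 and 6 did not overlap. Without dam smoke replicate 3 the counts were 55 and 51 beyond 2-fold and 9 and 6 beyond 4-fold, and with the floor of the dam arrays 60 and 67, and 9 and 9. Over all tested probes the groups did not overlap at 11.4%, with 6.05% higher (1705 probes) and 5.3% lower (1494 probes). With the 6 dam arrays in random order a share of about 0.1 of probes would not overlap, and 11.4% is near it. The direction of these small differences depended on the scaling: 53.3% of the non-overlapping probes were higher with the 75th percentile, 83.3% on unscaled arrays and 10.2% when the spike-ins set the scale. Among probes at an unadjusted p under 0.05 the higher share was 55% with the 75th percentile and 67.6% after centring on the median. It rose to 75.3% when arrays were left unscaled and was 10.8% when the spike-ins set the scale. The spike-in scale also shifted the median over all probes, from -0.01 to -0.20 on the log2 scale.

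**Figure D2:**
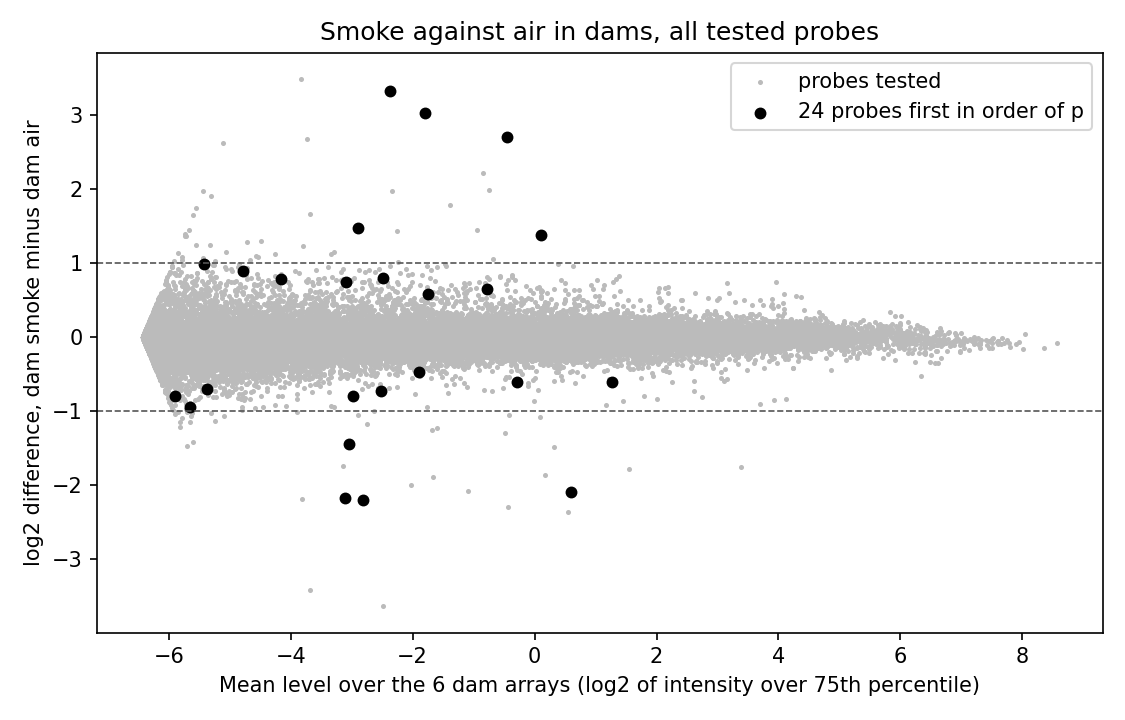
Log2 difference between dam smoke and dam air (vertical axis) against the mean log2 level over the 6 dam arrays (horizontal axis) for each of the 28185 tested probes, with dashed lines at a 2-fold change. Black points are the 24 probes first in order of p, 12 higher and 12 lower; most other probes lie close to 0.

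Among probes above the floor on all 6 dam arrays, the first in order of p was higher in smoke, and the next 3 higher probes had the largest differences of the 24 described. Probe A_51_P115601 had relative intensities of 27.4%, 17.1% and 23.8% in dam smoke replicates 1 to 3 and of 9.85%, 7.21% and 7.30% in dam air. All smoke arrays lay above all air arrays, and the lowest smoke value was 1.74 times the highest air value. On the log2 scale smoke exceeded air by 1.47 (standard error 0.19), and limma gave an adjusted p of 0.151. Probe A_51_P461067 read 106%, 38.7% and 138% with smoke and 10.6%, 13.7% and 7.13% with air, which puts it among the dimmer probes in air and near the 75th percentile in 2 of the smoke arrays. Its log2 difference was 3.03, or 8.17-fold, with a 95% interval of 2.09 to 3.97; its adjusted p in limma was 0.156.

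A pair of further probes, the next in order (ranks 3 and 4), had the same array profile as A_51_P461067. Rank 3 read 245%, 83.6% and 316% with smoke against 27.8%, 34.7% and 24.2% with air, a log2 difference of 2.71. Rank 4 read 82.2%, 24.8% and 112% with smoke against 6.01%, 8.46% and 4.48% with air, a log2 difference of 3.32 or 10.01-fold. Without dam smoke replicate 2 these log2 differences were 3.29 and 3.98, and without replicate 3 they were 2.32 and 2.89. Both had the adjusted p of 0.156 in limma that A_51_P461067 had. In all 3 of these probes the smoke arrays ranked replicate 3, 1, 2 and the air arrays replicate 2, 1, 3. Relative to dam smoke replicate 1, replicate 2 read 0.366, 0.340 and 0.301 of the value and replicate 3 read 1.30, 1.29 and 1.37 of it, in the order of the probes. Whether these probes target 1 gene or several is not known here.

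The other 8 of the 12 higher probes had differences of up to 2.60-fold and adjusted p of 0.238 to 0.434 in limma. The largest of these, the ninth in order, read 169%, 156% and 199% with smoke and 67.6%, 80.4% and 55.2% with air. The fifth in order had narrow groups, at 13.8%, 16.2% and 15.6% with smoke and 8.82%, 9.32% and 9.004% with air, a 1.68-fold difference. Dam smoke replicate 2 was the smoke array nearest to air in 7 of the 12 higher probes, and in all 5 of those with more than a 2-fold difference.

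Among the lower probes the smallest p belonged to small differences with narrow groups. Probe A_51_P137604 read 8.61%, 10.7% and 9.73% with smoke and 17.7%, 15.5% and 16.9% with air. The log2 difference of -0.79 (standard error 0.12) had an adjusted p of 0.156 in limma. Probe A_52_P639043 read 1.39%, 1.20% and 1.23% with smoke and 2.43%, 2.26% and 1.97% with air, close to the floor of 1.16%. Its log2 difference was -0.80 and its adjusted p 0.164 in limma. The lowest air value was 1.45 times the highest smoke value for the first probe and 1.41 times for the second.

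Larger differences came later in the order, and their groups were wider. The fifth lower probe read 61.1%, 119.8% and 52.99% with smoke and 323%, 247% and 375% with air, a 4.26-fold difference whose adjusted p in limma was 0.434. The last 2 of the 12 had a shared profile: the eleventh read 3.65%, 9.20% and 4.84% with smoke and 27.7%, 14.4% and 36.7% with air. The twelfth read 3.86%, 11.99% and 6.34% with smoke and 34.3%, 18.5% and 44.8% with air. In these 3 probes dam smoke replicate 2 was again the smoke array nearest to air, and dam air replicate 2 was the air array nearest to smoke. The air arrays ranked replicate 3, 1, 2, the reverse of their order in the 3 strongly higher probes. Without dam smoke replicate 3 the log2 differences of these 3 probes were -1.86, -2.08 and -2.16. The 12 lower probes spanned 1.38-fold to 4.59-fold, with adjusted p of 0.156 to 0.506 in limma.

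**Figure D3:**
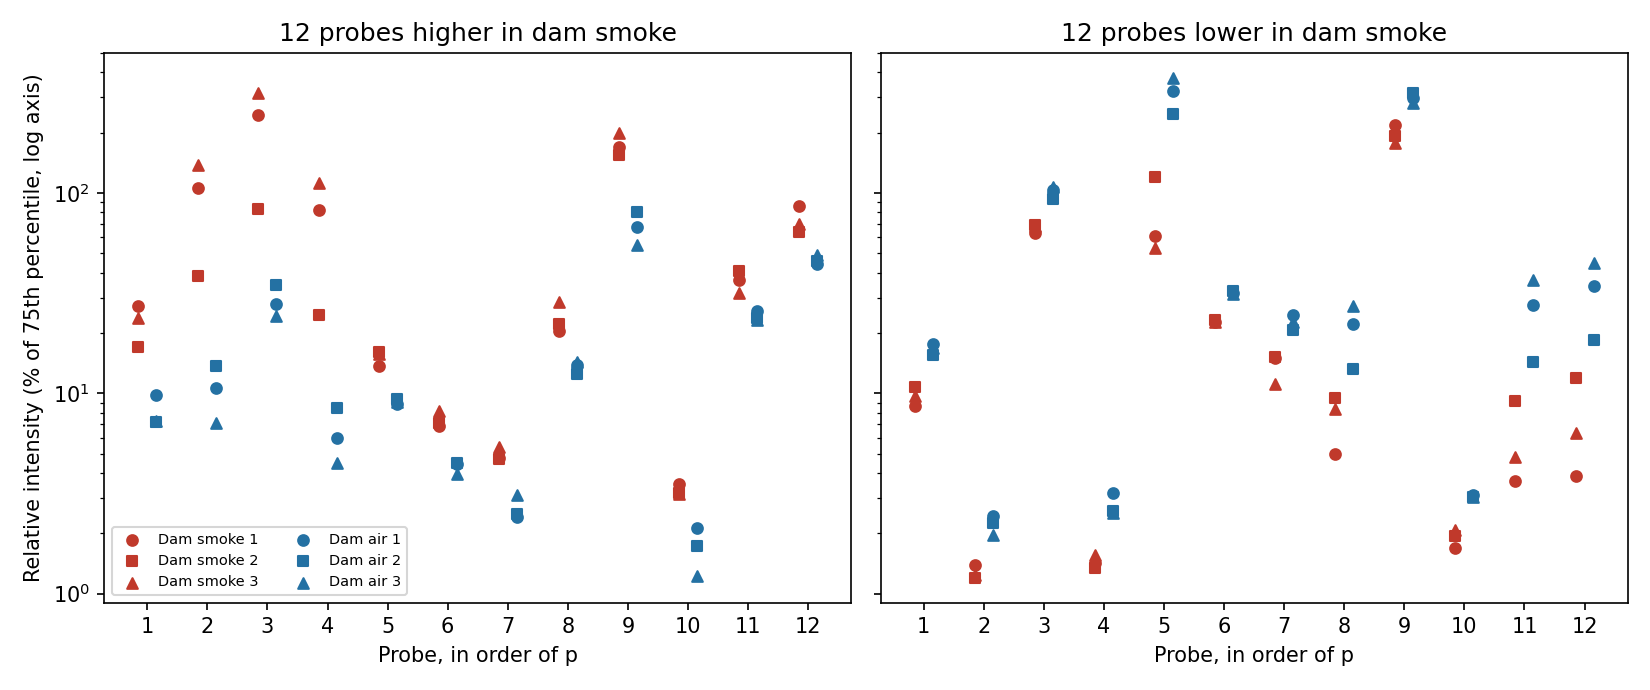
Relative intensity (percent of the array's 75th percentile, log axis) of the 12 higher (left) and 12 lower (right) probes first in order of p, with each of the 6 dam arrays as a point; colours mark smoke and air and symbols the replicate number. The squares of dam smoke replicate 2 lie between the other smoke arrays and the air arrays for the probes with the widest differences, such as the second at 38.7% against 106% and 138%.

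Whether the strongest higher probes were called depended on the scaling and on 1 array. With all arrays kept, the first 4 higher probes were among 6 called on unscaled arrays (limma adjusted p 9.68e-05 for A_51_P461067), and 3 of them were the 3 called when the spike-ins set the scale (adjusted p 0.0110 in limma). Without dam smoke replicate 2 limma called 7 probes, all higher in smoke, and 4 of them were the first 4 in order. In these 4 that replicate was the smoke array nearest to air, so leaving it out had to enlarge their log2 differences. The rest of the 7 were not among the 24. One read 23.7%, 5.86% and 19.1% with smoke and 4.42%, 5.44% and 3.45% with air. Another read 2.25%, 4.71% and 2.67% with smoke and 1.21%, 1.06% and 0.872% with air, near the floor of 1.16%. The last read 2.59%, 0.625% and 2.33% with smoke and 1.35%, 0.845% and 0.688% with air, so that replicate 2 lay under all air arrays. With dam smoke replicate 2 left out, A_51_P461067 had a log2 difference of 3.58 and A_51_P115601 one of 1.67. Their adjusted p in limma were 0.00397 and 0.0175. Without dam smoke replicate 3 these 2 probes kept log2 differences of 2.66 and 1.43, but the adjusted p was 0.463 for each in limma. The lower probes A_51_P137604 and A_52_P639043 had log2 differences of -0.80 and -0.77 without it, with adjusted p of 0.463 and 0.630 in limma. Without dam air replicates 1, 2 and 3 limma called 0, 0 and 0 probes, and the log2 difference of A_51_P461067 was 3.06, 3.25 and 2.78. The 2 probes called without dam smoke replicate 3 were not among the 24. One of them had 1.27% and 1.75% in dam smoke replicates 1 and 2, but 58.9% in replicate 3, beside 72.5%, 53.5% and 64.5% in dam air. The other read 8.11%, 7.51% and 1.92% with smoke and 1.26%, 1.51% and 0.958% with air, so that in both probes replicate 3 read like the air arrays or close to them.

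Slide 3, with 1 smoke and 1 air array, was the only slide on which dam groups could be set side by side. There the log2 difference of A_51_P115601 was 1.70, against 1.36 between slides 1 and 2, and that of A_51_P461067 was 4.27 against 2.41. For A_51_P137604 it was -0.80 against -0.79, and for A_52_P639043 it was -0.67 against -0.86. These probes were chosen with groups that do not overlap, which fixes the direction on slide 3, and its smoke array is the one that stood furthest apart. With slide as a fixed block limma called 0 probes and gave 1504 an unadjusted p under 0.05; the adjusted p of the 4 probes ran from 0.497 to 0.752, with log2 differences of 1.55, 3.27, -0.81 and -0.62. With slide as a random block 0 probes were called as well, with 1176 at the unadjusted level.

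Departures of more than 2-fold from the dam air mean were seldom shared by the smoke arrays. Dam smoke replicate 1 was more than 2-fold higher at 220 probes and lower at 107, replicate 2 at 82 and 61, and replicate 3 at 221 and 442. All 3 smoke arrays were more than 2-fold higher at 6 probes and lower at 18, while 1 array alone was higher at 425 and lower at 498. Of the departures seen in 1 array alone, replicate 3 held 185 of the higher and 401 of the lower. Dam air arrays, each set against the mean of the other 2, departed at 95 higher and 45 lower in replicate 1, 184 and 212 in replicate 2 and 127 and 117 in replicate 3. Within a group the 3 arrays spread over more than 4-fold at 128 probes in dam smoke and at 75 in dam air, and the median SD per probe was 0.153 and 0.127 on the log2 scale.

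The offspring arrays share no array with the dam groups and were used to see whether the same probes differed between smoke and air there. In the offspring, limma called 53.2% of all tested probes, 28.1% higher and 25.1% lower in smoke, and the counts below are read against these; the offspring groups did not overlap at 58.4%. Of the 12 higher dam probes 4 were also called higher in offspring (33.3%) and 0 lower. A_51_P115601 was 1 of these 4, with relative intensities of 10.1%, 12.02% and 9.26% for offspring smoke against 6.73%, 6.99% and 5.34% for offspring air. Its groups did not overlap, and the log2 difference was 0.72 (limma adjusted p 0.00956). A_51_P461067 stayed dim, at 7.07%, 7.53% and 7.09% for offspring smoke against 6.38%, 3.65% and 3.09% for offspring air, a log2 difference of 0.80 with a 95% interval of -0.14 to 1.74. The higher probes of ranks 3 and 4 had offspring differences of 0.44 and 0.35, with adjusted p of 0.363 and 0.569 in limma.

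Of the 12 lower dam probes 6 were called in the opposite direction in offspring, higher in smoke, and 1 was called lower. A_51_P137604 read 24.6%, 27.4% and 23.7% for offspring smoke against 13.9%, 11.6% and 11.5% for offspring air, a log2 difference of 1.03 where dams had -0.79. A_52_P639043 read 1.56%, 1.997% and 1.83% for offspring smoke against 1.25%, 1.10% and 1.37% for offspring air, a log2 difference of 0.50. These values lie near the floor of 1.16%, and the lowest of them was set to it. The eleventh and twelfth lower probes, 4.48-fold and 4.59-fold lower in dam smoke, were higher in offspring smoke by 1.66 and 1.74 on the log2 scale. The difference of the smoke effects, tested in the same limma fit, was called at 23.7% of all probes, and at 6 of the 12 higher and 9 of the 12 lower probes. With slide as a fixed block the difference was called at 42 probes in all, 0 of the 12 higher and 2 of the 12 lower, and with the spike-in scale at 10, of which 1 and 0. Without dam smoke replicate 3 it was called at 8610, with 6 and 8. Because the 24 probes were chosen for their dam difference, which enters this test, their share is a description.

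The wider set of probes with non-overlapping dam groups had other offspring shares when formed without dam smoke replicate 3. Of the 1705 higher in dam smoke, 45.9% were called higher and 7.21% lower in offspring, and of the 1494 lower in dam smoke, 39.1% were called lower and 10.5% higher. When the sets were formed without dam smoke replicate 3, the corresponding shares were 31.5% and 23.4% of 2607 probes, and 23.9% and 27.6% of 2683, near the shares over all tested probes. The median offspring log2 difference of the higher set was 0.35 with this array and 0.12 without it, beside 0.05 over all probes. Groups with an array fewer separate more readily, and offspring shares were not computed for the sets formed without another dam array. The part of dam smoke replicate 3 in these shares was therefore not tested.

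**Figure D4:**
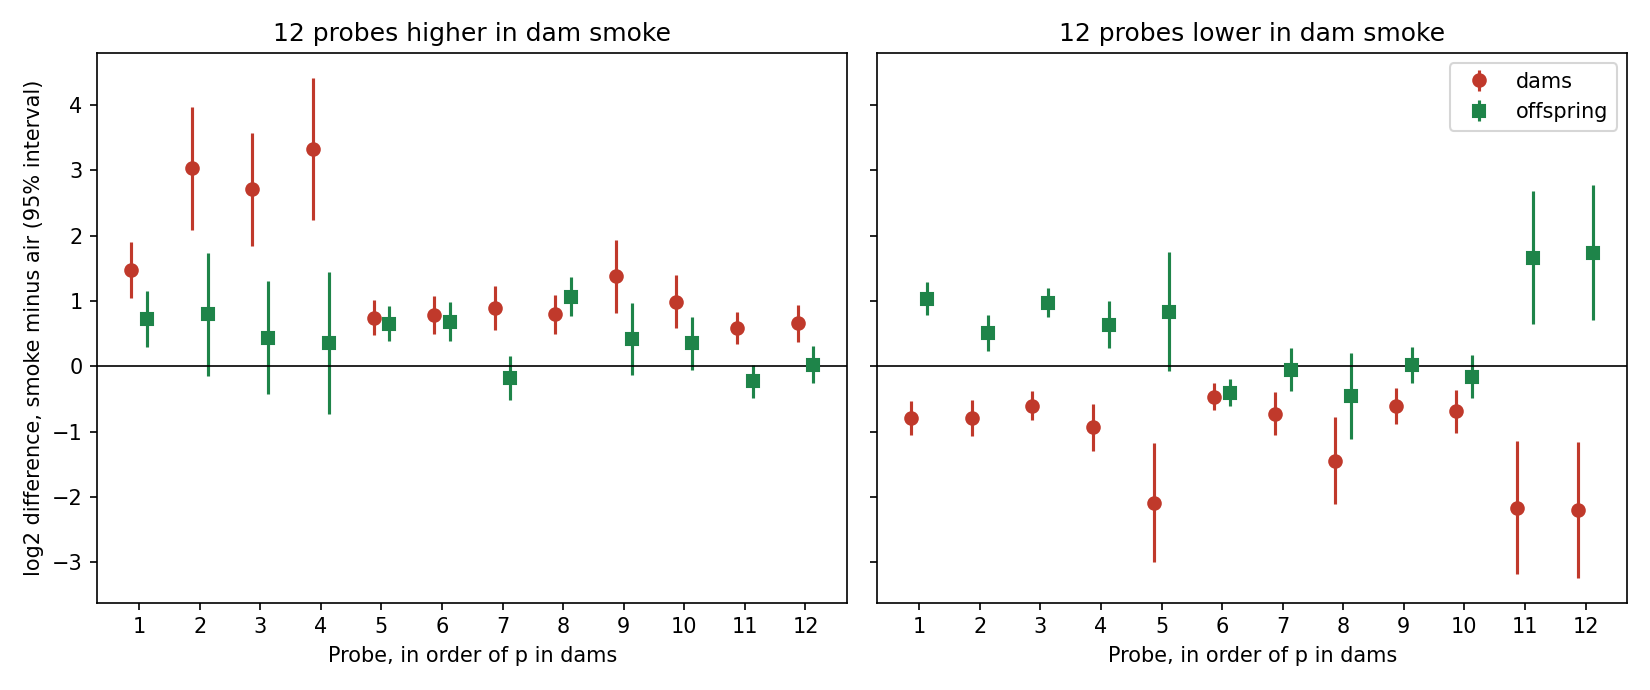
Log2 difference between smoke and air with its 95% interval in dams (circles) and in offspring (squares) for the 12 higher (left) and 12 lower (right) dam probes in order of p. The higher probes of ranks 2 to 4 lie at 2.71 to 3.32 in dams and at 0.35 to 0.80 in offspring, and the first 5 and last 2 lower probes lie at 0.50 or above in offspring.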

How the data were processed

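The deposited table held linear intensity values of 41267 probes on 12 arrays, 93 of them controls; the authors' background subtraction and any scaling are not given in the sources used here. Groups and replicate numbers came from the sample titles. Each array was divided by its 75th percentile over the 41174 other probes, floored at 1.16% of it (the highest scaled 95th percentile of 50 controls without a target), and converted to log2. The 28185 probes exceeding that floor on 3 or more of the 12 arrays were tested. Limma 3.58.1 in R 4.3.3 (lmFit, eBayes) fitted 1 mean per group over all 12 arrays, two-sided, with Benjamini-Hochberg adjustment over all probes and a threshold of 0.05. Figures used Python 3.11.15 and matplotlib 3.10.9.

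The probes described were the first 12 higher and 12 lower in order of p among those above the floor on all 6 dam arrays whose groups did not overlap; at most 2 identifiers per direction are printed. The comparison, this rule and the lists were chosen with earlier results of these data known. The 16 gene lists and 17 marker lists could not be applied. The fit was tested on simulated data. The closest dam arrays, air replicates 1 and 3, shared 0 identical values. The number of arrays limits the precision. Alternatives covered scaling, floor and filter, arrays in the fit, test, slide, replicate number, spike-in ratio and each array left out.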

Additional observations from a re-analysis of the deposited data

Results flagged for a closer look

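The effect of smoke differed between offspring and dams, by the test of the difference itself, at 6687 of 28185 probes in the fit without slide; with slide as a fixed block the test called 42 and with spike-in scaling 10. Among the probes printed by identifier, 3 passed that test without slide. The printed probes were chosen for a dam difference with groups that do not overlap, which fixes their order in dams. That difference enters this test, so their p-values are given as a description. A_51_P461067 had a smaller difference in offspring than in dams, by -2.23 on the log2 scale (standard error 0.60, adjusted p 0.0255 in limma); all 3 smoke arrays lay above the 3 air arrays in dams and in offspring. A_51_P137604 had a difference of the effects of 1.82 (adjusted p 0.00159 in limma) and A_52_P639043 of 1.30 (adjusted p 0.00445 in limma). Both were lower in all 3 dam smoke arrays and higher in all 3 offspring smoke arrays than in the air arrays of the same stage. A_52_P639043 read 1.10% to 2.43% over all arrays, near the floor of 1.16%, and its lowest offspring air value lay under that floor. With slide as a fixed block A_51_P137604 alone of the 3 passed (1.81, limma adjusted p 0.0455), while A_51_P461067 had -2.77 (adjusted p 0.128) and A_52_P639043 had 0.93 (adjusted p 0.0697). With spike-in scaling 0 of the 3 passed (limma adjusted p 0.0774 to 0.415). A_51_P115601 did not pass, with a difference of -0.75 (limma adjusted p 0.0671). The offspring air arrays correlated with the dam air arrays about as closely as with each other, and what part this has in these differences was not tested.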

How the results depend on the processing

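The count of 0 called probes between dam smoke and dam air was also 0 in 21 of 28 alternatives. It was 6 on unscaled arrays, 3 when scaled to the spike-ins, 1036 under array weights and 1 with the floor and filter of the dam arrays (added after the data had been seen), and between 0 and 7 when an array was left out (7 without dam smoke replicate 2, 2 without dam smoke replicate 3 and 1 without offspring air replicate 2). The probe called without offspring air replicate 2 had all 3 dam air values set to the floor. The estimation of array weights stopped short of its tolerance and gave weights from 0.293 to 8.44. Dam smoke replicate 3 had 0.374 and dam air replicate 1 had 8.44. The difference of the smoke effects, 6687 probes, became 10 with spike-in scaling, 42 with slide as a fixed block, 3414 after adding the spike-in ratio to the model, 4215 with no floor and no filter and 14585 with array weights, and ran from 3074 (without dam smoke replicate 2) to 8920 (without offspring air replicate 2) when an array was left out. It was 3236 without dam smoke replicate 1, 3246 and 4347 without dam air replicates 1 and 3, 4151 and 3918 without offspring smoke replicates 2 and 3, and 4353 without offspring air replicate 3. Further alternatives added after the data had been seen moved the 3199 probes with non-overlapping dam groups to 2097 without scaling, 1201 with spike-in scaling and 4290 to 7292 with a dam array left out, where 5 arrays separate more readily than 6 (6339, 6183 and 5290 without dam smoke replicates 1 to 3, 7292 and 5651 without dam air replicates 2 and 3). The 1166 probes at an unadjusted p under 0.05 became 531 on unscaled arrays, 528 with spike-in scaling, 5813 under array weights and 734 without dam air replicate 1. The difference of the spike-in ratio, 0.314 (exact permutation p = 0.7, two-sided, n = 3, the smallest possible being 0.1), ran from -0.0567 without dam smoke replicate 3 to 0.560 without dam smoke replicate 1. The 24 probes were chosen with dam groups that do not overlap, so leaving out an array could not reverse their direction. They gave 667 alternative values: 632 kept direction and lack of a call, 35 were called in the same direction and 0 reversed. Of these 35 calls 24 came under array weights, whose estimation stopped short of its tolerance. Causes of these changes were not tested.

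Replicate numbers did not pair the dam samples: deviations of same-numbered smoke and air arrays correlated at -0.164, -0.155 and -0.144. With the replicate block 0 dam probes were called and the difference of the effects gave 4449.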

Other observations

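A small number of probes were above the floor in 1 dam group alone. There were 19 above it on all 3 dam smoke arrays and on 0 dam air arrays, with means of 1.29% to 4.56% of the 75th percentile. For these the smoke mean was at least 1.11-fold to 3.92-fold higher, a bound set by the floor, and at 3 of them it was at least 2-fold. In these probes every air value was set to the floor, so the air group has no spread. The smallest adjusted p in limma, 0.133, belonged to 1 of these probes, and no other p is given for them. In the other direction 37 probes were above the floor on all 3 air arrays and on 0 smoke arrays, with bounds of 1.03-fold to 1.88-fold and 0 beyond 2-fold.

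Differences between dam smoke and dam air ran with brightness. Of the 44 probes more than 2-fold higher, 25 lay among the 7047 dimmest and 0 among the 7046 brightest, and of the 39 lower ones 15 and 2. The median standard error fell from 0.22 for dim to 0.12 for bright probes, and the median log2 difference went from -0.05 to 0.01.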
